A study of Sus scrofa with 11 samples.

Results

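The 9 genes described here are the 3 peroxisome proliferator-activated receptors, PPARA, PPARD and PPARG, and 6 genes known as fasting-type targets of these receptors or of fasting signals, ANGPTL4, PLIN2, CD36, UCP2, PDK4 and TXNIP. They were taken by gene symbol from the 30376 genes of the deposited expression values, each symbol matched 1 gene, and all 9 passed the filter on low values, an FPKM (reads scaled to gene length and library size) of at least 0.5 in at least 4 libraries, that left 13956 genes to test. Polyadenylated RNA was sequenced from 7 full-thickness skin wounds of a diabetic female Yucatan minipig and 4 of a non-diabetic female Yucatan minipig, with 1 library per wound, all collected on day 10 after wounding. The diabetic animal had received streptozotocin, a toxin of the insulin-producing beta cells, by intravenous infusion, was kept on daily insulin for part of the weeks that followed, and had insulin withdrawn before wounding. The non-diabetic animal received the same dorsal punch wounds and dressings. Its age was not given in the sources used here, and that of the diabetic animal was given only at induction. All wounds of a group came from a single animal, so replicate error here is that among wounds on 1 back, and diabetes and every other difference between the animals cannot be told apart. The library names carry the letter L or R, whose meaning the labels do not state, with 3 L-named and 4 R-named diabetic wounds and 2 of each among the non-diabetic wounds. The names also end in a code that is the same within each group and differs between the groups. Its meaning is not stated either, and whatever it marks cannot be told apart from diabetes.

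PPARs are nuclear receptors that are activated by fatty acids and their derivatives and bind DNA as heterodimers with retinoid X receptors. PPARA is best known for switching on fatty acid oxidation in fasted liver, PPARG for adipocyte differentiation and lipid storage, and PPARD for fatty acid use in many tissues, keratinocytes of wounded skin included. When insulin is low and fatty acids are released from fat, cells that take them up induce a set of genes that hold back lipoprotein lipase (ANGPTL4), coat lipid droplets (PLIN2), carry fatty acids across the membrane (CD36), act in the inner mitochondrial membrane (UCP2) and stop pyruvate from entering the mitochondrial oxidation route (PDK4). TXNIP, which binds thioredoxin and lowers glucose uptake, is induced by high glucose.

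Promoter sequence is shown first for the genes with the largest called differences, ANGPTL4 and PLIN2, and for TXNIP. Of the 9 windows searched, only that of TXNIP held the FOXO motif, GTAAACA. Windows from 250 bases before to 50 bases after the annotated gene start were read from Sscrofa11.1 with the RefSeq gene starts, for 20664 protein-coding genes including the 9. The 250 bases before each start are given 5′ to 3′ on the strand of the gene: ANGPTL4 at chr2:70912893-70913142 on the minus strand, PLIN2 at chr1:203683617-203683866 on the plus strand, and TXNIP at chr4:99348339-99348588 on the plus strand. Capitals mark, in the TXNIP sequence, the letters GTAAACA of the FOXO motif and then a pair of CACGAG boxes that are 5 bases apart.
ANGPTL4: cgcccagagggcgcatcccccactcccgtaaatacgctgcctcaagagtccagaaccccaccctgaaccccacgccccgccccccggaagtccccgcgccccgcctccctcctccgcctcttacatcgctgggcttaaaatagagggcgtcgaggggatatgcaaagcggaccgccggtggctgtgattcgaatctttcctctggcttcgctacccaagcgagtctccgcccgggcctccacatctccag
PLIN2: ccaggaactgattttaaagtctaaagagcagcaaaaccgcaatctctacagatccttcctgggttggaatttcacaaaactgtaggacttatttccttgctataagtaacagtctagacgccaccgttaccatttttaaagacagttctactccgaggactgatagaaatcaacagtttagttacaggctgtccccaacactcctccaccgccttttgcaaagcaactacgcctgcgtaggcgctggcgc
TXNIP: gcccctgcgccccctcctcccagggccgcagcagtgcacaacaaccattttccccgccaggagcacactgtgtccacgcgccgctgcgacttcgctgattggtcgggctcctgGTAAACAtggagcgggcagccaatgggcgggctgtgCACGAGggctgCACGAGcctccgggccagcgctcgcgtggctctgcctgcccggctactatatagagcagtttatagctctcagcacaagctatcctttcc

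On either strand, the letters GTAAACA were found in 2.69% of all windows and in 1 of the 9, TXNIP, where they begin 137 bases before the start. The hexamer AGGTCA, the unit that PPAR heterodimers read as a direct repeat, was found in 14.2% of all windows and in 0 of the 9. The whole repeat AGGTCANAGGTCA was found with up to 2 mismatches in 3.35% of all windows and in 0 of the 9. CACGTG, the E-box, was in 7.64% of all windows, AGAACA, the glucocorticoid receptor hexamer, in 12.5%, and both were in 0 of the 9. CCAAT was in 35.7% of all windows and in 4 of the 9, PPARA, PPARD, PDK4 and TXNIP. The paired CACGAG boxes of TXNIP, from 101 to 85 bases before the start, were searched for only after that sequence had been read, and TXNIP held the only match among the 20664 windows. The PPARA gene model is 1404 bases long and begins at the coding start, so its window is not a promoter.

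In a wider search added after these results, from 5000 bases before to 5000 bases after each start and with up to 1 mismatch, the direct repeat was found in 10.7% of 20588 windows and in 1 of the 9, UCP2. That match has 0 mismatches and lies at chr9:8359876-8359888 within coding exon 6 of UCP2 (8359838 to 8359939), beginning at base 4665 of the gene and on the strand opposite to the gene. The 73 bases around it, chr9:8359846-8359918, are shown on the minus strand, that of UCP2, because this was the single intact direct repeat found near any of the 9 genes, and capitals mark the repeat read from its other strand.
UCP2: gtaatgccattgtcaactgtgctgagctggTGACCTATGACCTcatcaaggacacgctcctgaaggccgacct

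In the comparison of diabetic with non-diabetic wounds, 5 of the 6 target genes were called higher in diabetic wounds and 0 of the 3 receptors were called in either direction. ANGPTL4 was 6.00 times, PLIN2 3.01 times, UCP2 2.18 times, CD36 2.13 times and TXNIP 1.91 times as high by the ratio of group mean FPKM. In each of these 5 genes every diabetic wound lay above every non-diabetic wound. PDK4 had the second largest log2 fold change among the 9, 1.59, and did not pass the test. Calls were made by limma on log2(FPKM + 0.5) where the adjusted p (Benjamini-Hochberg over the 13956 genes) was under 0.05 and the log2 fold change exceeded 0.5 in size, which called 3.00% of all genes tested, 1.35% higher and 1.66% lower in diabetic wounds. Over all genes tested the groups were fully separate in 5.65%, in 2.69% with diabetic wounds higher and in 2.96% with diabetic wounds lower. At an unadjusted p under 0.05 all 6 targets and 0 of the 3 receptors passed (limma), against 18.4% of all genes tested. The 9 genes were chosen with earlier results of these data known. Their counts beside the shares over all genes are therefore a description and not independent evidence. The study tested these same wounds, so no difference given here is independent of its results, whether or not it named the gene.

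**Figure D1:**
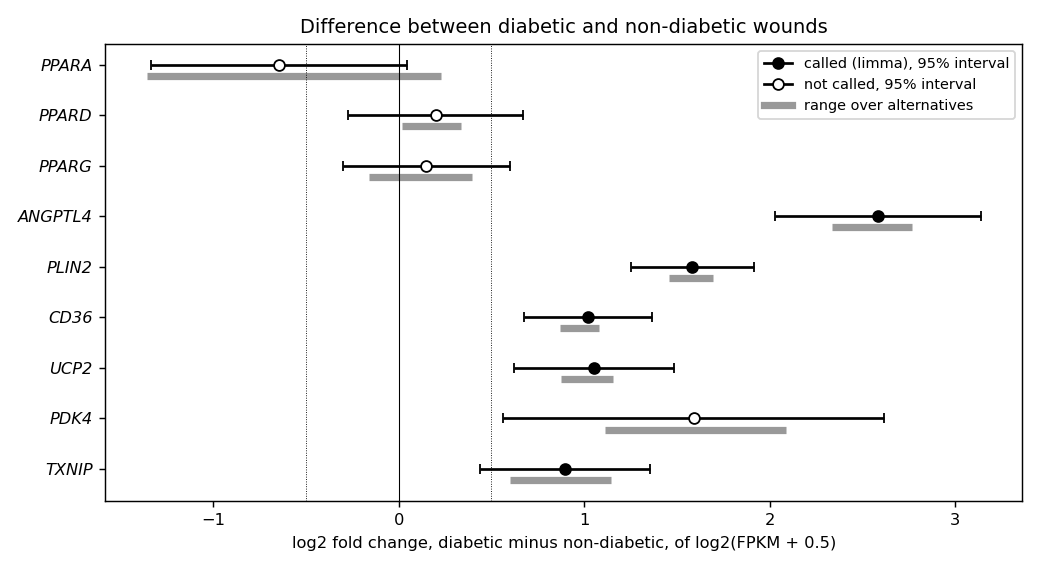
Log2 fold change of log2(FPKM + 0.5), diabetic minus non-diabetic, for the 9 genes (points, filled where called by limma, with the 95% interval) and the range of the fold change over 27 alternative settings (grey bars); dotted lines mark the threshold of 0.5 either way. The 6 target genes lie to the right, from 0.90 for TXNIP to 2.58 for ANGPTL4, and the intervals of the 3 receptors include 0.

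PPARD had the highest level of the receptors and PPARA the lowest, in the order PPARD, PPARG, PPARA in 11 of 11 wounds (FPKM, which is per length). PPARD made up 73.2 ± 8.27% (SD, n = 7) of the summed receptor FPKM in diabetic and 69.3 ± 6.28% (SD, n = 4) in non-diabetic wounds. For PPARG the shares were 20.2 ± 8.64% and 19.0 ± 5.16%, and for PPARA 6.62 ± 4.25% and 11.7 ± 2.72%. The PPARA model holds no untranslated sequence, so reads outside its coding exons could not be counted there, and its level per length may not compare with those of the other receptors.

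PPARA (gene ID 397239, chr5:3302755-3321091, minus strand) had 2.09, 2.79, 1.54, 0.88, 0.70, 0.70 and 0.58 FPKM in diabetic wounds 1 to 7 and 1.64, 1.79, 3.25 and 2.07 FPKM in non-diabetic wounds 1 to 4. Diabetic wounds 3 to 7 lay below every non-diabetic wound, while diabetic wounds 1 and 2 lay within the range of the other group. The means were 1.33 ± 0.849 (SD, n = 7) and 2.19 ± 0.732 FPKM (SD, n = 4), with a log2 fold change of -0.64 (standard error, SE, 0.32, 95% interval -1.34 to 0.05, adjusted p = 0.309, limma). An exact two-sided permutation of the wound labels over all 330 splits, on mean log2 values, gave p = 0.106. These values rest on 21 to 175 reads per wound.

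Within the diabetic animal, PPARA divided by the letter in the library name. The 3 L-named diabetic wounds had 1.54 to 2.79 FPKM and the 4 R-named ones 0.58 to 0.88 FPKM (two-sided exact permutation test over 35 splits, p = 0.0286, the smallest this design can give; 9 such tests were made, 1 for each gene). Non-diabetic wounds, 2 of each letter, ran the other way in level, with 1.64 to 1.79 FPKM in L-named and 2.07 to 3.25 FPKM in R-named wounds. The log2 fold change was 0.23 among L-named wounds (adjusted p = 0.634) and -1.36 among R-named wounds (adjusted p = 0.0197), both by limma. The difference between them was -1.59 (SE 0.31, adjusted p = 0.0410 for the interaction, limma), and 901 of the 13956 genes passed that interaction test. At an unadjusted p under 0.05, 4385 genes passed it (limma). The fit of L-named wounds called 0.0645% of all genes tested and that of R-named wounds 10.1%. For each of the other 8 genes the adjusted p of the interaction was 0.333 or higher (limma).

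PPARD (gene ID 397297, chr7:31222533-31295221, plus strand) had 14.03, 14.9, 16.7, 8.62, 17.4, 17.0 and 16.9 FPKM in diabetic wounds 1 to 7 and 8.63, 17.3, 15.3 and 11.7 FPKM in non-diabetic wounds 1 to 4. The ranges of the groups overlapped almost fully, and the lowest wound of each group, diabetic 4 and non-diabetic 1, stood at nearly the same level. Its log2 fold change was 0.20 (SE 0.22, 95% interval -0.27 to 0.67, adjusted p = 0.680, limma). The same wounds held the least of the keratinocyte markers. Their sums were 40.6 and 288 FPKM, against 1488 to 6514 FPKM in the other 9 wounds. With the log2 of this sum as a covariate, a choice added after seeing the data, the PPARD log2 fold change was 0.11 (SE 0.12, adjusted p = 0.657, limma). That fit adjusts the group difference, and the part of these cells in the PPARD level was not tested. Without both wounds the log2 fold change was 0.14 (adjusted p = 0.649, limma).

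PPARG (gene ID 397671, chr13:68301566-68433951, plus strand) had 2.46, 3.00, 4.26, 5.93, 3.33, 5.16 and 3.82 FPKM in diabetic wounds 1 to 7 and 3.71, 3.49, 4.08 and 2.59 FPKM in non-diabetic wounds 1 to 4. Diabetic wounds reached both below and above the range of the non-diabetic ones. The log2 fold change was 0.15 (SE 0.20, 95% interval -0.30 to 0.60, adjusted p = 0.758, limma), and among L-named wounds alone it was -0.16. The intervals of PPARD and PPARG leave room for a change of up to 0.67 and 0.60 on the log2 scale.

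**Figure D2:**
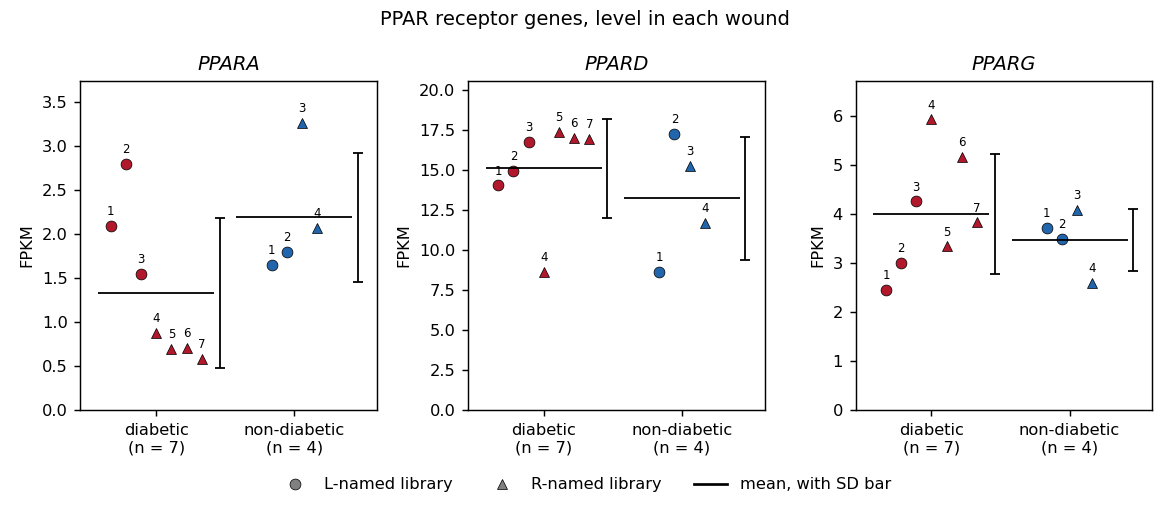
FPKM of PPARA, PPARD and PPARG in each wound (points, numbered by replicate; circles for L-named and triangles for R-named libraries), with the group mean and SD. The R-named diabetic wounds 4 to 7 hold the 4 lowest PPARA values, 0.58 to 0.88 FPKM, while the groups overlap for PPARD and PPARG.

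Among the targets, ANGPTL4 showed the largest difference. ANGPTL4 (gene ID 397628, chr2:70905767-70912892, minus strand), the secreted inhibitor of lipoprotein lipase, had 107, 64.4, 130, 138, 131, 140 and 129 FPKM in diabetic wounds 1 to 7 and 12.3, 28.2, 16.0 and 23.5 FPKM in non-diabetic wounds 1 to 4. The lowest diabetic wound had more than double the level of the highest non-diabetic wound, and diabetic wounds 3 to 7 lay close together. The means were 120.1 ± 26.8 (SD, n = 7) and 20.01 ± 7.21 FPKM (SD, n = 4), with a log2 fold change of 2.58 (SE 0.25, 95% interval 2.03 to 3.14, adjusted p = 0.000338, limma). The exact permutation test gave its smallest p, 0.00303. Its mean FPKM over the 11 wounds lay at the 95.9 percentile of all genes tested.

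PLIN2 (gene ID 397402, chr1:203683867-203709277, plus strand), the coat protein of lipid droplets in cells other than fat cells, had 61.2, 47.6, 47.3, 41.6, 42.3, 47.7 and 49.6 FPKM in diabetic wounds 1 to 7 and 13.4, 19.9, 11.9 and 18.8 FPKM in non-diabetic wounds 1 to 4. Diabetic wounds 2 to 7 lay within a narrow band from 41.6 to 49.6 FPKM, and diabetic wound 1 stood above it. The log2 fold change was 1.58 (SE 0.15, adjusted p = 0.000306, limma; exact permutation test, p = 0.00303). The study named PLIN2 among its most changed genes on the same wounds, so this difference is not independent evidence.

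CD36 (gene ID 733702, chr9:99685748-99782296, minus strand), a fatty acid transporter and scavenger receptor that macrophages, adipocytes and capillary endothelium also make, had 11.8, 13.4, 16.1, 20.001, 13.4, 19.97 and 13.02 FPKM in diabetic wounds 1 to 7 and 5.94, 7.56, 7.48 and 7.87 FPKM in non-diabetic wounds 1 to 4. Diabetic wounds 4 and 6 were the highest, and the non-diabetic wounds varied little. Its means of 15.4 ± 3.40 (SD, n = 7) and 7.21 ± 0.865 FPKM (SD, n = 4) gave a log2 fold change of 1.02 (SE 0.16, adjusted p = 0.00523, limma; exact permutation test, p = 0.00303).

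UCP2 (gene ID 397549, chr9:8358559-8364552, minus strand), a mitochondrial carrier of the uncoupling protein family that is abundant in immune cells, had 15.9, 23.8, 17.4, 12.5, 17.9, 26.8 and 24.6 FPKM in diabetic wounds 1 to 7 and 7.995, 9.88, 10.7 and 7.77 FPKM in non-diabetic wounds 1 to 4. The gap between the groups was small, from 10.7 FPKM in the highest non-diabetic to 12.5 FPKM in the lowest diabetic wound. The log2 fold change was 1.05 (SE 0.20, adjusted p = 0.0149, limma; exact permutation test, p = 0.00303). Without non-diabetic wound 1 it was not called (adjusted p = 0.0583, limma), nor without non-diabetic wound 4 (adjusted p = 0.0548, limma).

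TXNIP (gene ID 733688, chr4:99348589-99351760, plus strand) had 123, 136, 174, 217, 121, 251 and 158 FPKM in diabetic wounds 1 to 7 and 86.0, 103, 68.5 and 95.6 FPKM in non-diabetic wounds 1 to 4. Its mean FPKM was the highest of the 9 genes in both animals, 168.5 ± 49.5 (SD, n = 7) and 88.3 ± 14.9 FPKM (SD, n = 4). Diabetic wounds 4 and 6 were again the highest, as for CD36. The log2 fold change of 0.90 (SE 0.21, adjusted p = 0.0388, limma; exact permutation test, p = 0.00606) lay close to the threshold of the test, and the call was made in 12 of 27 alternative settings. The call was lost on leaving out diabetic wound 3, 4 or 7 or any non-diabetic wound, with an adjusted p of 0.0552 to 0.141 (limma).

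PDK4 (gene ID 100286778, chr9:75246956-75260134, minus strand), the kinase that switches off pyruvate dehydrogenase, had 4.41, 5.66, 20.3, 8.88, 4.87, 11.98 and 5.43 FPKM in diabetic wounds 1 to 7 and 0.58, 3.26, 2.07 and 4.57 FPKM in non-diabetic wounds 1 to 4. Diabetic wound 3 was the highest by a wide margin, and the groups overlapped between diabetic wound 1 and non-diabetic wound 4. The means of 8.78 ± 5.74 (SD, n = 7) and 2.62 ± 1.70 FPKM (SD, n = 4) differed by a log2 fold change of 1.59 (SE 0.47, 95% interval 0.56 to 2.62), above the adjusted threshold of the test (adjusted p = 0.0925, limma). The exact permutation test for this gene alone gave p = 0.00909. PDK4 was called in 0 of 27 alternative settings, with log2 fold changes from 1.11 to 2.09, and without non-diabetic wound 1, its lowest wound, the value was 1.15. Diabetic wound 3 also held the skeletal muscle markers, tissue in which PDK4 is abundant. Their summed level was 1705 FPKM there, with ACTA1, the muscle actin gene, at 957 FPKM, against 0.11 to 0.37 FPKM in the other 10 wounds. Without that wound PDK4 had a log2 fold change of 1.36 (SE 0.41, adjusted p = 0.129, limma).

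**Figure D3:**
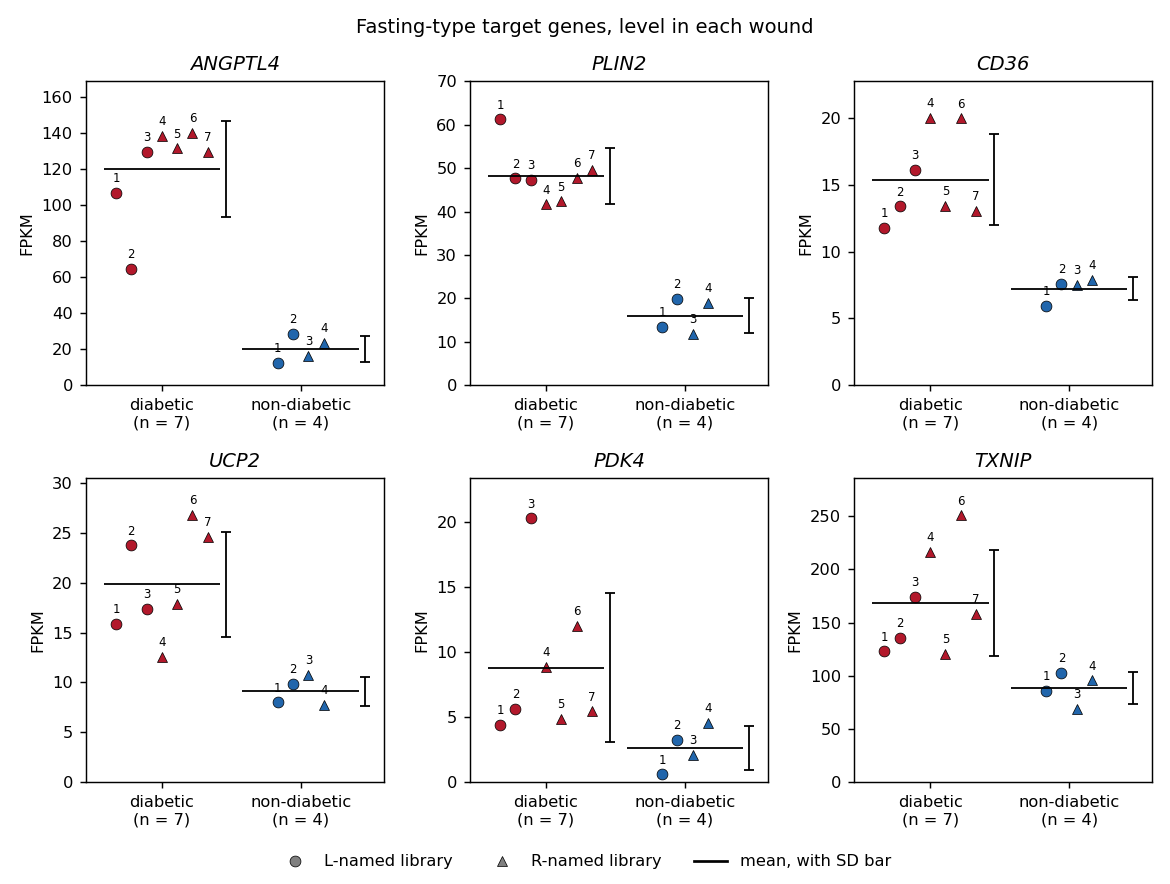
FPKM of ANGPTL4, PLIN2, CD36, UCP2, PDK4 and TXNIP in each wound (points, numbered by replicate; circles for L-named and triangles for R-named libraries), with the group mean and SD. The groups do not overlap except for PDK4, where diabetic wound 1 at 4.41 FPKM lies below non-diabetic wound 4 at 4.57 FPKM.

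Each result on the targets kept its direction among L-named and among R-named wounds alone. ANGPTL4 had a log2 fold change of 2.34 among L-named and 2.76 among R-named wounds, PLIN2 of 1.63 and 1.56, CD36 of 0.97 and 1.04, and UCP2 of 1.03 and 1.06. The values lay further apart for TXNIP, 0.60 and 1.15, and for PDK4, 2.09 and 1.11. With 3 against 2 wounds, 0 of the 9 genes were called among the L-named (limma), where 9 genes in all (0.0645% of those tested) were called. Among the R-named, with 4 against 2 wounds, 4 of the 9 were called, ANGPTL4, PLIN2 and CD36 higher and PPARA lower, in a fit that called 10.1% of all genes tested. Leaving out diabetic wound 4 and non-diabetic wound 1, which stood apart on the first principal component (44.5% of the variance), left 4 of the 9 called, without TXNIP (adjusted p = 0.127, limma), and 1.36% of all genes tested.

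Sums of cell type marker genes are set beside these results. In bulk tissue, fewer cells of a type and less RNA per cell cannot be told apart. The summed level of 10 macrophage markers ran from 545 to 1220 FPKM in diabetic and from 347 to 658 FPKM in non-diabetic wounds (exact two-sided permutation of the wound labels, p = 0.0273, or 0.191 adjusted over the 7 marker sums by Benjamini-Hochberg). Of these 10 genes, 4 were called higher and 0 lower, MRC1, MARCO, CD14 and ITGAM, while CD68, the general marker, had 86.7 ± 22.4 (SD, n = 7) and 65.4 ± 19.2 FPKM (SD, n = 4) and was not called (adjusted p = 0.367, limma). Diabetic wound 4, with the highest macrophage sum, also had the highest CD36 and PPARG and the lowest UCP2 and PLIN2 of the diabetic wounds. Its CD36 level was 20.001 FPKM, against 19.97 FPKM in diabetic wound 6. Wound 4 also had the lowest keratinocyte marker sum, 40.6 FPKM, so its levels cannot be set beside macrophage markers alone. The part of macrophages in the differences of CD36, UCP2 and PLIN2 was not tested.

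The summed adipocyte markers overlapped, with 19.9 to 227 FPKM in diabetic and 100.2 to 235 FPKM in non-diabetic wounds. Of 8 adipocyte genes 2 were called lower, LEP and PNPLA3, and 0 higher, against 1.66% and 1.35% of all genes tested. ADIPOQ, the defining one, had 64.1 ± 42.6 (SD, n = 7) and 105.6 ± 38.5 FPKM (SD, n = 4) and was not called (adjusted p = 0.371, limma). The highest adipocyte sum among diabetic wounds was that of wound 6, which was also highest for ANGPTL4, UCP2 and TXNIP. Diabetic wound 1, with the lowest sum, had 107 FPKM of ANGPTL4. The non-diabetic wounds had 12.3 to 28.2 FPKM of ANGPTL4. The part of adipocytes in the levels of these genes was not tested. Endothelial sums ran over the same range, 207 to 258 and 204 to 258 FPKM, with PECAM1 at 91.8 ± 13.4 (SD, n = 7) and 90.4 ± 13.1 FPKM (SD, n = 4). Fibroblast sums overlapped, 19250 to 53026 and 34884 to 65846 FPKM, led by COL1A1, COL1A2 and COL3A1. Of 9 keratinocyte markers 0 were called, and KRT5 ran from 29.2 FPKM in diabetic wound 4 upwards. Of 8 sebaceous gland markers only SOAT1 and FAR2 passed the filter, and the defining MC5R and AWAT1 were at or near 0.

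**Figure D4:**
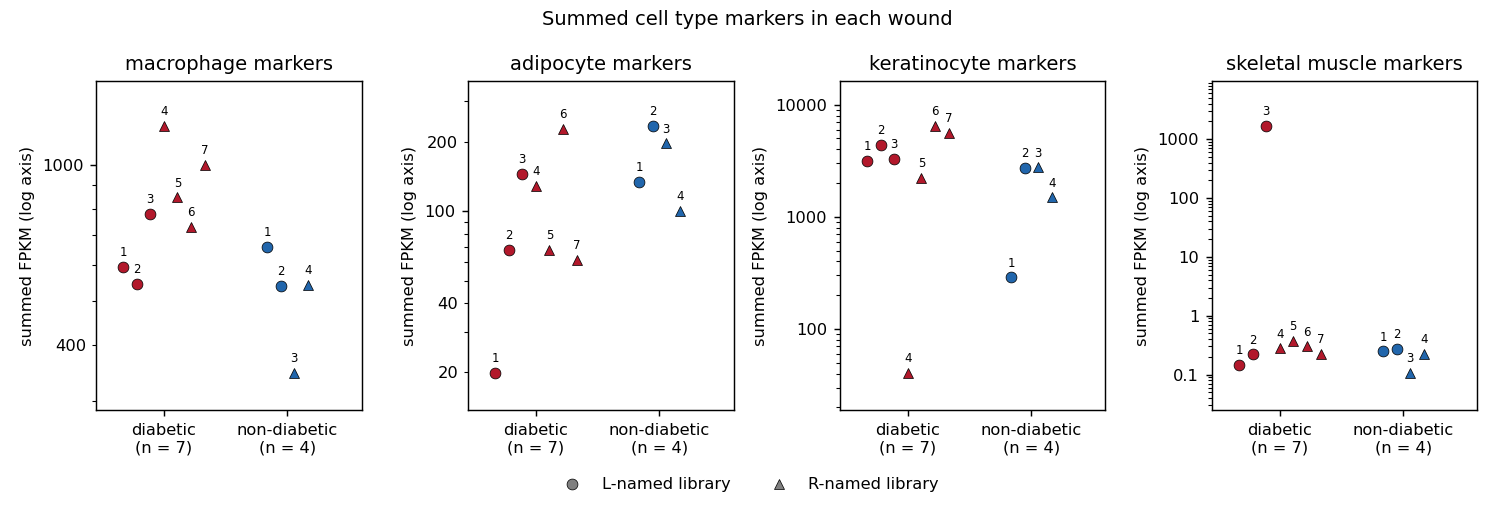
Summed FPKM (log axis) of macrophage, adipocyte, keratinocyte and skeletal muscle markers in each wound, numbered by replicate, with circles for L-named and triangles for R-named libraries. Diabetic wound 4 and non-diabetic wound 1 are lowest for keratinocyte markers, at 40.6 and 288 FPKM, and diabetic wound 3 alone holds muscle markers, at 1705 FPKM.

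The wider pathway was followed in 8 lists of genes. Over all genes tested, 1.35% were called higher and 1.66% lower. The partners and coregulators of the PPARs, retinoid X receptors, coactivators and corepressors, held 14 tested genes, of which 0 were called, with a median log2 fold change of -0.05 against 0.01 over all genes tested. PPARGC1A, the coactivator of fasted liver and muscle, and RXRG were under the filter.

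Other PPAR targets of fatty acid oxidation were represented by 16 tested genes, of which 2 were called higher and 0 lower, with a median of 0.19. CPT1A, which commits fatty acids to mitochondrial import, ran from 30.7 to 35.3 FPKM in diabetic and from 6.28 to 9.91 FPKM in non-diabetic wounds, and SLC25A20, the carnitine carrier of the next step, from 23.1 to 30.1 FPKM and from 10.7 to 15.1 FPKM. Their log2 fold changes were 2.07 and 1.11 (SEs 0.12 and 0.11). Both genes were named by the study on the same wounds, so their direction is not independent evidence. Enzymes of the oxidation cycle itself did not pass: HADHB, the most abundant gene not called, had 43.4 ± 6.15 (SD, n = 7) and 37.1 ± 4.85 FPKM (SD, n = 4), a log2 fold change of 0.22 (adjusted p = 0.406, limma).

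Among PPAR targets of lipid storage and lipogenesis, 0 of 18 tested genes were called higher and 4 lower, with a median of -0.64. The study named several of these genes on the same wounds, FABP3, LPL, ACSL3 and SCD among them, so their direction is not independent evidence. SCD, the desaturase that makes oleic acid, had 7.89 to 19.1 FPKM in diabetic and 47.3 to 346 FPKM in non-diabetic wounds, which made a log2 fold change of -3.04 (SE 0.46, adjusted p = 0.00459, limma). FABP3, a cytosolic fatty acid carrier, had a log2 fold change of -1.69, LPL, the lipase that ANGPTL4 inhibits, of -1.24, and ACSL3, which activates fatty acids at lipid droplets, of -0.74. LPL was at 19.3 ± 3.52 FPKM (SD, n = 7) in the wounds where ANGPTL4 was high, against 46.7 ± 11.98 FPKM (SD, n = 4). FABP5, the epidermal carrier and the most abundant gene of the list, had 852 ± 338 and 804 ± 375 FPKM (adjusted p = 0.912, limma). Of the 18 tested genes, 6 had a positive log2 fold change. FABP4 was among these 6, at 0.92, and was not called (adjusted p = 0.0607, limma). The adipocyte markers PLIN1 and CIDEC also belong to this list, and neither was called.

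Neighbours of ANGPTL4 and CD36 in lipid uptake included 3 of 13 tested genes called higher and 0 lower, with a median of 0.25. GPIHBP1, which holds lipoprotein lipase on capillary endothelium, had 38.8 ± 15.3 (SD, n = 7) and 10.5 ± 2.16 FPKM (SD, n = 4), a log2 fold change of 1.74 (SE 0.31, adjusted p = 0.0116, limma). SLC27A3, of the fatty acid transport protein family, and SCARB1, the receptor for high-density lipoprotein, had log2 fold changes of 0.92 and 0.69. SLC27A3 was also named by the study on the same wounds, so its direction is not independent evidence. FABP5, also on this list, was its most abundant gene not called.

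Around PDK4, the pyruvate dehydrogenase list had 0 of 13 tested genes called higher and 1 lower, with a median of -0.16. That gene was PDP2, a phosphatase that reverses the action of the kinases, with 1.57 ± 0.356 (SD, n = 7) and 2.84 ± 0.534 FPKM (SD, n = 4), a log2 fold change of -0.69 (adjusted p = 0.0290, limma). The other kinases PDK1, PDK2 and PDK3 had log2 fold changes of -0.17, 0.09 and -0.08 and were not called. PDHB, a subunit of the enzyme and the most abundant gene of the list, had 29.6 ± 3.01 and 32.6 ± 10.9 FPKM.

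Relatives of TXNIP and genes of glucose sensing gave 1 higher and 1 lower of 13 tested, with a median of 0.10. KLF11, a Krüppel-like transcription factor, had 5.24 to 10.96 FPKM in diabetic and 1.44 to 2.16 FPKM in non-diabetic wounds, which made a log2 fold change of 1.83 (SE 0.20, adjusted p = 0.000562, limma). ARRDC3, an arrestin of the same family as TXNIP, was lower by a log2 fold change of -0.59 (adjusted p = 0.0325, limma), while ARRDC4, which shares induction by glucose with TXNIP, had 0.32 and was not called (adjusted p = 0.360, limma). MLXIPL, the glucose-sensing factor ChREBP, had 0.942 ± 0.636 (SD, n = 7) and 2.48 ± 1.87 FPKM (SD, n = 4; adjusted p = 0.244, limma). SLC2A1, the glucose transporter GLUT1 and the most abundant gene not called, had 85.3 ± 39.5 and 75.2 ± 45.0 FPKM.

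Of 14 FOXO and fasting regulators, which include the insulin receptor and its substrates, 0 were called higher and 1 lower, with a median of -0.14. SESN3, a stress sensor that FOXO factors induce, had a log2 fold change of -0.51 (adjusted p = 0.0498, limma). CITED2, the most abundant gene not called, had 29.97 ± 15.7 and 21.9 ± 9.80 FPKM. Of 10 tested glucocorticoid-response genes, 1 was called higher and 0 lower, with a median of 0.03. FKBP5, a chaperone of the glucocorticoid receptor, had 12.9 ± 1.52 (SD, n = 7) and 8.68 ± 0.768 FPKM (SD, n = 4), a log2 fold change of 0.54 (adjusted p = 0.0164, limma). GLUL, glutamine synthetase and the most abundant of them, had 118.1 ± 42.1 and 124.1 ± 63.6 FPKM.

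**Figure D5:**
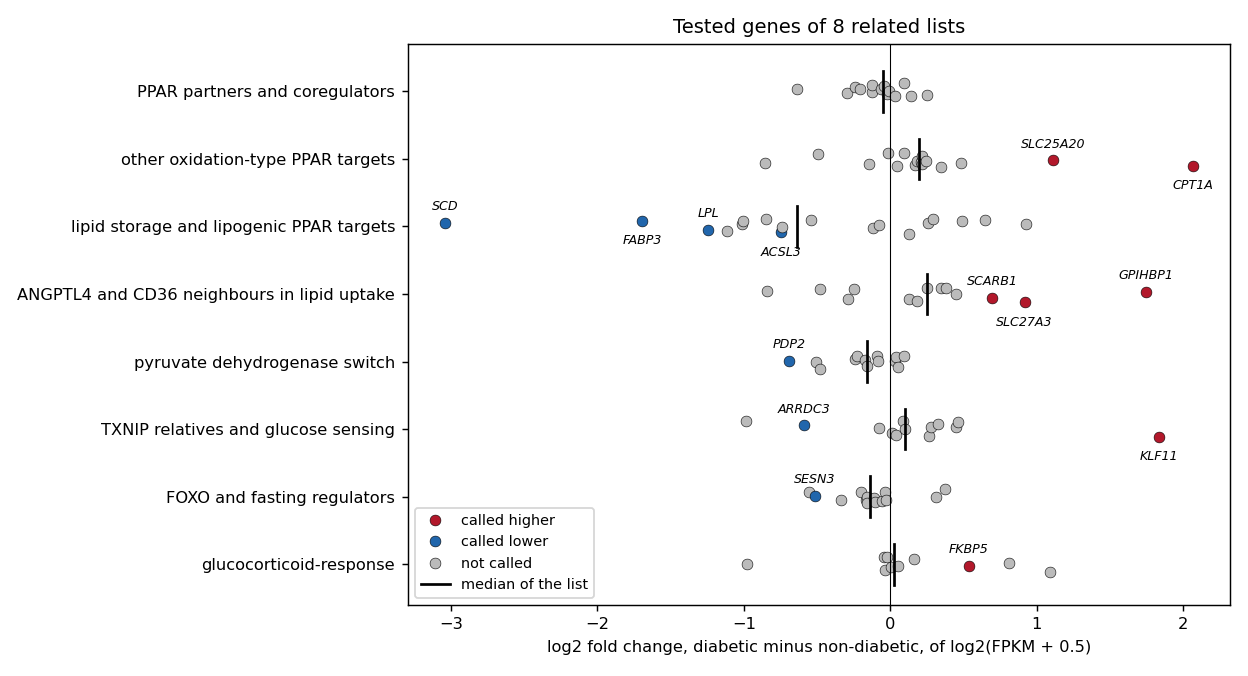
Log2 fold change of log2(FPKM + 0.5), diabetic minus non-diabetic, for every tested gene of the 8 lists (points, coloured where called by limma) with the median of each list (bar). The lipid storage list has the lowest median, -0.64, with SCD at -3.04, and CPT1A at 2.07 is the highest point.

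The genes whose pattern over the 11 wounds was most like each of the 9 were found by Pearson correlation of log2(FPKM + 0.5), a description that includes the difference between the animals. PLIN2 was nearest to CPT1A (r = 0.985) and CTNNBL1 (0.966), ANGPTL4 to KLF11 (0.968) and CD209 (0.968), CD36 to KLF11 (0.958) and LAP3 (0.958), and UCP2 to RRAGB (0.971) and LAMA5 (0.952). KLF11 was among the nearest for both ANGPTL4 and CD36. TXNIP was nearest to FABP4 (0.963), the carrier of adipocytes and macrophages, and PLEKHH3 (0.955), and PDK4 to KSR1 (0.963) and LPAR2 (0.954). FABP4 had 402.5 ± 126.4 (SD, n = 7) and 209.8 ± 58.6 FPKM (SD, n = 4) and, like PDK4, did not pass (log2 fold change 0.92, adjusted p = 0.0607, limma). For the receptors the nearest genes were MTPN (0.985) and CBX5 (0.974) for PPARA, CEP170B (0.958) and HSPB1 (0.944) for PPARD, and CSF1 (0.914) and JADE2 (0.913) for PPARG, none of them called.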

How the data were processed

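Gene levels were measured by sequencing of polyadenylated RNA in 7 diabetic and 4 non-diabetic wounds. Per the labels, the authors used fastp, HISAT2 2.2.1, StringTie 2.2.3 and featureCounts 2.0.6 on Sscrofa11.1, and the deposited FPKM values are scaled by gene length and library size. The formula, annotation release and strand setting were not given in the sources used here. The authors tested counts with DESeq2. The deposited gene length column returned whole reads for 100% of values within 0.05 reads, 28314785 to 40168372 reads per wound, so that 1 read on a gene of 2 kb was worth 0.0112 to 0.0194 FPKM. Of 30376 genes, 30335 had an identifier in RefSeq's annotation of Sscrofa11.1, and 26 symbols turned into dates were repaired from it.

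Genes with at least 0.5 FPKM in at least 4 libraries were tested on log2(FPKM + 0.5), a scale that understates changes of low genes, with limma 3.58.1 in R 4.3.3 (eBayes with trend) and Benjamini-Hochberg adjustment over 13956 genes, after a trial on simulated data. Single values were compared by two-sided exact permutation tests in Python 3.11.15 (SciPy 1.17.1, numpy 2.4.6, pandas 2.3.3, matplotlib 3.10.9). Alternatives changed the pseudocount, filter, scaling, spread estimate, weights, block, covariates, wounds included and test. Members and lists were chosen with earlier results of these data known. The rule for named genes took the 9 genes, each list's called genes and most abundant gene not called, the 2 genes most correlated with each of the 9 and the defining markers. ARRDC4, MLXIPL, PDK1, PDK2, PDK3, PPARGC1A, RXRG, CIDEC and PNPLA3 were named after their values were seen. So were MRC1, MARCO, CD14, ITGAM, MSR1, SOAT1, FAR2, ACADM and EHHADH. KRT14, ACOT2 and MT2A matched no symbol. Some genes that the rule names are counted in the lists and are not reported here.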

Additional observations from a re-analysis of the deposited data

Results flagged for a closer look

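PPARD in diabetic wound 4, at 8.62 FPKM, stood further below the other 6 diabetic wounds (14.03 to 17.4 FPKM) than Dixon's test allows at its 95% critical value. That wound also held the lowest sum of keratinocyte markers. The fit with that sum as a covariate, given above, bears on the group difference, and the part of this in the PPARD level of the wound was not tested. PLIN2 in diabetic wound 1, at 61.2 FPKM, stood above the other 6 (41.6 to 49.6 FPKM) by the same test. That wound had the lowest sum of adipocyte markers, 19.9 FPKM. Chance alone marks about 1 in 20 groups in this way, and 18 groups were examined.

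The log2 fold change of PPARA differed between R-named and L-named wounds by -1.585 (standard error 0.31, adjusted p = 0.0410, limma). The labels do not say what the letters mean. With 4 against 2 and 3 against 2 wounds, all from 1 animal per group, the difference rests on few wounds, with 21 to 175 reads each for this gene.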

How the results depend on the processing

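In 27 alternative settings, ANGPTL4, PLIN2 and CD36 were called in 25 each, UCP2 in 22, TXNIP in 12, PPARA in 1, and PPARD, PPARG and PDK4 in 0 (limma). The direction was reversed in 2 values, both among L-named wounds alone, a choice added after seeing the data: PPARA had a log2 fold change of 0.23 and PPARG of -0.16. Of the 9 genes, 5 were called in the reported fit, 0 among L-named wounds and 0 with the replicate number as a block, and between 3 and 5 on leaving out 1 wound. Leaving out non-diabetic wound 1 or 4 gave the 3, without UCP2 and TXNIP. The genes called in all, 419 (188 higher, 231 lower), became 822 with library weights (406 and 416), 187 without diabetic wound 4 and non-diabetic wound 1 (106 and 81), 9 among L-named wounds (5 and 4) and 1415 among R-named wounds (726 and 689). The filter of 1 FPKM in 7 libraries left 149 called lower, with fewer genes tested. Leaving out 1 wound gave 181 to 483 genes, 104 to 236 higher and 75 to 247 lower. The causes of these shifts were not tested. Voom on recovered reads called 324 genes.

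With the replicate number as a block, 16 genes were called (11 higher, 5 lower), and the block leaves diabetic wounds 5 to 7, which have no partner, without weight on the difference. ANGPTL4 then had a log2 fold change of 2.44 (adjusted p = 0.145), PLIN2 1.62 (0.136), CD36 1.02 (0.136), UCP2 0.88 (0.183) and TXNIP 0.86 (0.332). Same-numbered wounds came from different animals, so by design the numbers pair no wounds. Their deviations from the group means correlated at -0.27, 0.21, 0.07 and -0.48 for numbers 1 to 4. Deviations within such small groups depend on each other, so these values cannot decide whether wounds are paired.

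Counting error bears on PPARA, with 21 to 175 reads per wound, and on PDK4, with 59 reads in its lowest wound. With 1 animal per group, no setting separates diabetes from the animal.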
